A study of Mus musculus with 8 samples.

Results

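A set of 10 genes of the transforming growth factor beta (TGF-beta) pathway were followed in regulatory T cells (Treg cells, the Foxp3-expressing CD4+ T cells that restrain immune responses) of mouse. The members were taken by name from the 24453 genes of the deposited table, for their roles: the docking receptor gene Lrrc32, the ligand gene Tgfb1, the integrin genes Itgav and Itgb8, the receptor genes Tgfbr1 and Tgfbr2, the signal transducers Smad2 and Smad3, and the inhibitors Smad7 and Ski. All 10 passed the filter on low values, as did 15547 genes in all.

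Messenger RNA was sequenced in 3 T143, 2 T138 and 3 WT libraries of sorted Foxp3-positive, CD4-positive T cells from untreated mice. T143 and T138 are lines made by somatic cell nuclear transfer (SCNT), in which a mouse is derived from the nucleus of 1 T cell and inherits its rearranged T cell receptor, so each line stands for 1 founder cell. The series description calls T138 a naturally occurring Treg model and T143 an agonist-induced one, and asks whether the Treg population is made of distinct subsets. Every library, the 3 WT ones included, carries the strain and genotype label NOD-Foxp3GFP-Rag1-/-, so a NOD background, a Foxp3 reporter and a Rag1 deletion are given for all groups. Wild-type cells with rearranged receptors need Rag1, and whether the label holds for the WT mice could not be checked. No ages are given. Source names and titles disagree for 2 libraries, since T143 replicate 1 has a T138 mouse as its source and WT replicate 1 a T143 mouse; groups follow the titles and model labels. Whether replicates came from separate mice is not labelled, so each p-value speaks only of the spread among these libraries, part of which may be technical.

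TGF-beta is made as a latent complex in which a propeptide folds around the active cytokine. On Treg cells the protein GARP, encoded by Lrrc32, holds this complex at the cell surface, and the integrin formed by the alpha v and beta 8 chains (Itgav and Itgb8) frees the cytokine from it. The freed ligand binds the type II receptor (Tgfbr2), which phosphorylates the type I receptor (Tgfbr1), which in turn phosphorylates Smad2 and Smad3 so that they enter the nucleus. Smad7 blocks the active type I receptor and Ski represses transcription by the SMAD complex. The pathway is known for its part in Foxp3 induction, in T cell quiescence and in suppression by Treg cells.

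Values are the authors' normalised read counts, which bring every library to the same total, and changes are differences of log2(value + 1) with their standard error (SE). Recovered depth was 7.83 to 12.6 M reads in T143, 15.84 and 18.41 M in T138, and 14.64 to 22.64 M in WT. The T cell marker Cd4 was listed at 10922 to 15941 in T143, at 12235 and 12820 in T138 and at 14770 to 17655 in WT. Foxp3, on which the cells were sorted, was at 3920, 6299 and 8694 in T143, against 41854 and 41161 in T138 and 29773, 36362 and 35360 in WT, and the 3 T143 libraries lay below all others. A list of 6 Treg genes, Foxp3 included, took 0.0721, 0.0929 and 0.129% of the signal in T143. It took 0.555 and 0.57% in T138 and 0.481 to 0.59% in WT. Genes of other cell types were also present. A list of 12 neutrophil and granulocyte precursor genes took 0.57, 0.963 and 3.44% of the signal in T143, 0.144 and 0.0272% in T138 and at most 0.00546% in WT. All 12 were above 0 in each T143 and T138 library, and 8, 4 and 6 of them were at 0 in the 3 WT libraries. A list of 11 dendritic cell and MHC class II genes took 0.0449, 0.185 and 0.129% in T143, 0.668 and 0.502% in T138 and 0.00838 to 0.011% in WT, with 1 or 2 of the 11 at 0 in each WT library and none at 0 elsewhere. A list of 10 monocyte and macrophage genes took 0.0705 to 0.293% in T143, 0.0344 and 0.0221% in T138 and 0.00287 to 0.004% in WT. Xist was at 19143 to 24992 in T143, against 2.95 and 0 in T138 and 0 to 129.9 in WT, and Ddx3y at 0 to 1.27 in T143, against 3634 and 3175 in T138 and 2094 to 3018 in WT. The sex of the mice therefore cannot be told apart from the line in any comparison with T143. In bulk RNA, fewer cells that express a gene and less RNA per cell cannot be told apart. The part of these other cell types in the results that follow was not tested, except by adding their marker level to the fit as described after the members.

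Across the members, 1 of 10 was higher and 1 lower in T143 than in T138, where 21.0% of all tested genes were called (10.8% higher and 10.2% lower). In T138 against WT, 1 member was higher and 2 were lower, against 11.0% of all tested genes (5.74% higher and 5.30% lower). In T143 against WT, 1 member was higher and 5 were lower, against 23.8% of all tested genes (11.7% higher and 12.1% lower). A gene was called when its Benjamini-Hochberg adjusted p in the limma fit was under 0.05. The members' median change was -0.35 (T143 against T138), -0.05 (T138 against WT) and -0.32 (T143 against WT), beside 0.15, -0.06 and 0.05 over all tested genes. The comparisons share libraries and are not independent of each other. Lrrc32, Itgav, Itgb8, Tgfbr1, Tgfbr2 and Ski were called in at least 1 comparison, and Tgfb1, Smad2, Smad3 and Smad7 in none.

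**Figure D1:**
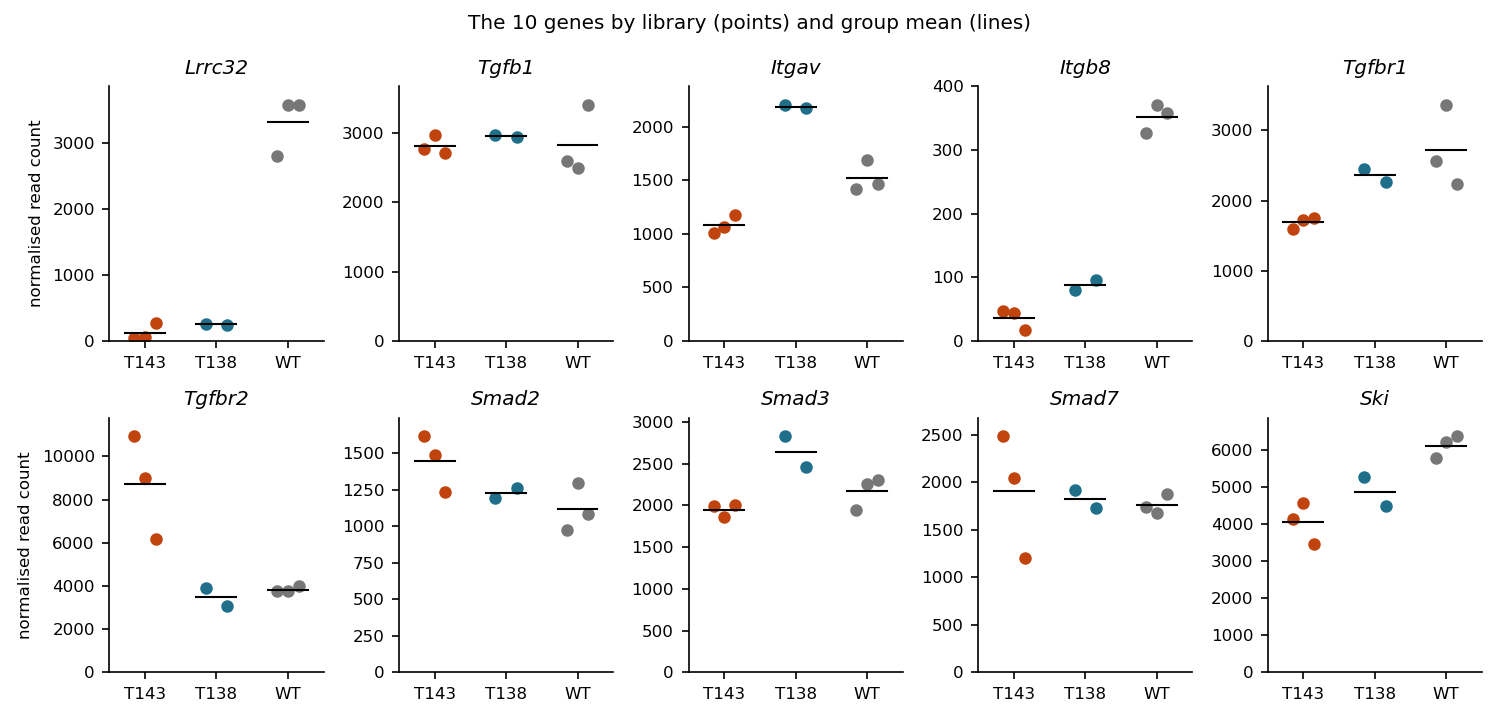
Normalised read count of each of the 10 members (vertical axis from 0, 1 panel a gene) in the 3 T143, 2 T138 and 3 WT libraries, with points for libraries and a bar for the group mean. The Lrrc32 and Itgb8 points of T143 and T138 lie below all WT points, the Tgfbr2 points of T143 lie above all others, and the Tgfb1 groups overlap.

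The ligand came first in abundance per length and was called in no comparison. Tgfb1 (chromosome 7, 25687002 to 25705077, GRCm38) was at 2772, 2961 and 2709 in T143, at 2961 and 2943 in T138 and at 2589.7, 2495 and 3401 in WT. The groups overlapped, and the WT libraries spread more widely than either line. The change was -0.07 ± 0.16 (SE) for T143 against T138, with a 95% interval of -0.42 to 0.28 and an adjusted p of 0.781. It was 0.08 ± 0.16 for T138 against WT (interval -0.28 to 0.43, adjusted p = 0.824) and 0.01 ± 0.14 for T143 against WT (interval -0.31 to 0.32, adjusted p = 0.983). Each interval leaves out a 1.5-fold change in either direction.

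GARP showed the widest range of the 10. Lrrc32 (chromosome 7, 98489305 to 98501831) was at 41.8, 52.2 and 279.7 in T143, at 261 and 244 in T138 and at 2812, 3586 and 3578 in WT. Every WT library lay far above every library of both lines, T143 replicates 1 and 2 were the lowest of the 8, and T143 replicate 3 lay just above T138. Lrrc32 fell by 5.26 ± 0.59 on the log2 scale in T143 against WT (26.7-fold lower by group means, adjusted p = 0.000455, lower in 3 of 3 libraries). It fell by 3.71 ± 0.66 in T138 against WT (13.2-fold lower, adjusted p = 0.00737, 2 of 2 libraries). Neither call against WT held with the neutrophil or the dendritic list as a covariate, where marker level and group cannot be told apart. Between the lines the change was -1.56 ± 0.66 with an adjusted p of 0.123, and the call turned on T143 replicate 3: without that library, which also had the most neutrophil marker signal, the change was -2.41 with an adjusted p of 0.000285. The 2 lowest values rest on 21 and 41 recovered reads, the other T143 library on 226, T138 on 265 and 288, and WT on 3367 to 4708.

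Foxp3 is known to raise Lrrc32 transcription, and the lines differ in Foxp3, so both were set side by side. Per 1000 Foxp3 reads, Lrrc32 stood at 10.7, 8.28 and 32.2 in T143, at 6.23 and 5.92 in T138 and at 94.5, 98.6 and 101 in WT. The ratio was lower in all 5 libraries of the lines than in WT, and the 2 T138 libraries, with the most Foxp3, had the lowest ratios. Foxp3 itself fell by 2.79 ± 0.27 in T143 against T138 (6.58-fold lower, adjusted p = 0.000206), and its change in T138 against WT was 0.3 ± 0.27 (interval -0.29 to 0.89, adjusted p = 0.542). GARP is also made by platelets and endothelial cells. The summed level of 6 platelet genes was 191 to 406 in T143, 22.6 and 90.6 in T138 and 84.0 to 169 in WT, with 1 of the 6 at 0 in each T143 library, 5 and 4 in T138 and 3, 4 and 3 in WT, and that of 4 endothelial genes was at most 71.9 in any library.

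**Figure D2:**
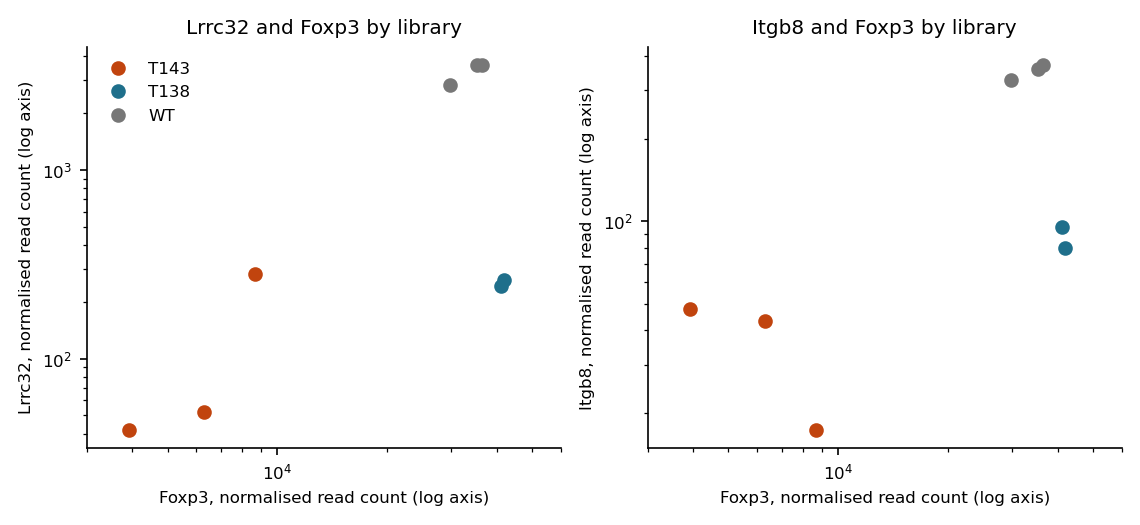
Lrrc32 (left) and Itgb8 (right) against Foxp3, all as normalised read counts on log axes, with 1 point a library, coloured by group. The 2 T138 points lie above the WT points in Foxp3, while their Lrrc32 lies at 261 and 244, below the WT minimum of 2812, and their Itgb8 at 79.7 and 95.7, below the WT minimum of 326.

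The 2 integrin chains did not move together. Itgav (chromosome 2, 83722303 to 83806917), the alpha v chain, was at 1009, 1068 and 1172 in T143, at 2203 and 2170.1 in T138 and at 1422, 1684 and 1461 in WT. The groups did not overlap, with T143 lowest, WT between and T138 highest. Itgav fell by 1.02 ± 0.15 in T143 against T138 (2.02-fold lower, adjusted p = 0.00142). It was 0.53 ± 0.15 higher in T138 than in WT (1.44-fold, adjusted p = 0.0455) and fell by 0.49 ± 0.13 in T143 against WT (1.41-fold lower, adjusted p = 0.0222). The 2 calls against WT sat near the threshold, the T138 call being lost under 14 of 25 alternatives and the T143 call under 8. Among these, the T138 call was lost without T138 replicate 1 (adjusted p = 0.17), T138 replicate 2 (0.165), WT replicate 1 (0.105), WT replicate 3 (0.118) or T143 replicate 2 (0.0838), and the T143 call without T143 replicate 1 (0.0615), T143 replicate 2 (0.0771) or WT replicate 2 (0.061).

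Itgb8 (chromosome 12, 119162803 to 119238276), the beta 8 chain that pairs with alpha v alone, was at 47.8, 43.3 and 17.3 in T143, at 79.7 and 95.7 in T138 and at 326, 371 and 358 in WT. The 3 groups did not overlap, and the order was T143, T138, WT from low to high. Itgb8 fell by 3.37 ± 0.43 in T143 against WT (9.74-fold lower, adjusted p = 0.000578). It fell by 2.00 ± 0.49 in T138 against WT (4.01-fold lower, adjusted p = 0.0252), a call lost under 9 of 25 alternatives, among them leaving out any T138 or WT library, with adjusted p between 0.0595 and 0.111 and a change of -2.13 to -1.87. With the neutrophil list as a covariate the change was -0.24 in T138 against WT and -0.55 in T143 against WT, and neither was called. That marker level cannot be told apart from the group against WT, and with it 0 of all tested genes were called in either comparison. Between the lines the change was -1.37 ± 0.49 (adjusted p = 0.068), and without T143 replicate 1 it was -1.63 with an adjusted p of 0.0482. The T143 values rest on 24, 34 and 14 recovered reads. Per 1000 Itgav reads, Itgb8 stood at 47.3, 40.5 and 14.8 in T143, at 36.2 and 44.1 in T138 and at 229.5, 220.1 and 245 in WT, so both lines lay below WT in this ratio and overlapped each other. Per 1000 Foxp3 reads, Itgb8 stood at 12.2, 6.87 and 1.99 in T143, at 1.91 and 2.33 in T138 and at 10.965, 10.2 and 10.1 in WT. On this scale T143 covered the range of both other groups, with replicate 1 above WT and replicate 3 at the T138 level, while T138 stayed below WT.

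Other beta chains that pair with alpha v had other orders over the groups. Itgb3 was at 4603, 5090.5 and 1981 in T143, at 3280.5 and 4462 in T138 and at 363, 604 and 612 in WT, with every library of the lines above WT. It was 2.81 ± 0.35 higher in T143 than in WT (7.4-fold, adjusted p = 0.000637) and 2.9 ± 0.39 higher in T138 than in WT (7.36-fold, adjusted p = 0.00182). Beta 3 also pairs with a platelet chain, whose marker list is given above. Itgb1, which serves many alpha chains, was at 6299, 5597 and 5281 in T143, at 15430.0 and 19222 in T138 and at 9746, 14024 and 14694 in WT. It fell by 1.59 ± 0.19 in T143 against T138 (adjusted p = 0.00057) and by 1.14 ± 0.17 in T143 against WT (adjusted p = 0.00138). Itgb5 had a change of 2.63 ± 0.88 in T143 against WT with an adjusted p of 0.0535, and Itgb6 was at 0 in 6 of the 8 libraries.

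**Figure D3:**
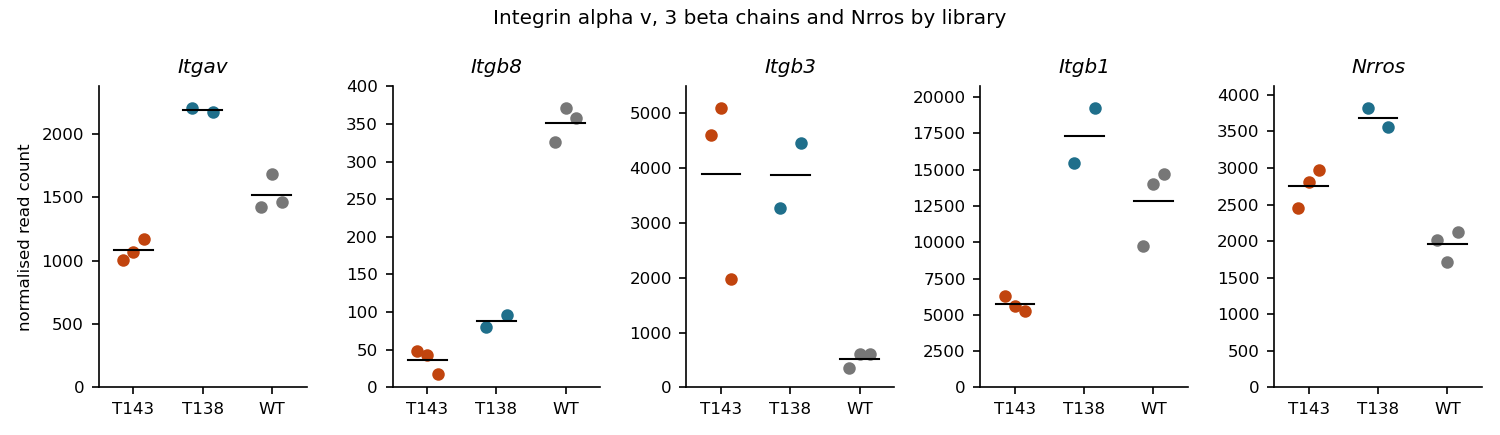
Normalised read counts of Itgav, of the beta chains Itgb8, Itgb3 and Itgb1 and of Nrros, a relative of Lrrc32 described further on (vertical axes from 0, 1 panel a gene), in the 3 T143, 2 T138 and 3 WT libraries, with a point a library and a bar for the group mean. Itgb8 is highest in WT, at 326 to 371, and Itgb3 is highest in the lines, at 1981 to 5090.5.

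The 2 receptor chains moved apart in T143. Tgfbr2 (chromosome 9, 116087695 to 116175363), the ligand-binding type II receptor, was at 10932, 9027 and 6176 in T143, at 3899.6 and 3067 in T138 and at 3751, 3767 and 3984 in WT. All T143 libraries lay above the rest, with replicate 3 the lowest of them, and T138 and WT overlapped. Tgfbr2 was 1.29 ± 0.22 higher in T143 than in T138 (2.5-fold, adjusted p = 0.00276) and 1.15 ± 0.19 higher in T143 than in WT (2.27-fold, adjusted p = 0.0023). In T138 against WT the change was -0.15 ± 0.22 (interval -0.63 to 0.33, adjusted p = 0.733). The 6 genes of a resting T cell list summed to 115716, 84018 and 53628 in T143, against 7004 and 7687 in T138 and 34838, 31206 and 31044 in WT, and within T143 the order of the 3 libraries was the same as for Tgfbr2. A list of 6 general T cell genes had this order in T143 as well (79524, 59020 and 45267). Per 1000 Cd4 reads, Tgfbr2 stood at 686, 702 and 565 in T143, at 304 and 251 in T138 and at 254, 226 and 226 in WT. The part of either list in the result was not tested.

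Tgfbr1 (chromosome 4, 47353222 to 47414926), the type I receptor kinase, was at 1600.0, 1724 and 1756 in T143, at 2452 and 2269 in T138 and at 2568, 3363 and 2235 in WT. T143 lay below every other library, and T138 fell within the WT range. Tgfbr1 fell by 0.66 ± 0.16 in T143 against WT (1.61-fold lower, adjusted p = 0.0124, and 0.0596 without trend and robust fitting). Without both libraries whose source names disagree with their titles, the adjusted p was 0.0718, with a change of -0.66. The change was -0.48 ± 0.18 in T143 against T138 (adjusted p = 0.0778, and 0.0294 without WT replicate 2) and -0.19 ± 0.18 in T138 against WT (adjusted p = 0.575). Per 1000 Tgfbr2 reads, Tgfbr1 stood at 146, 191 and 284 in T143, at 629 and 739.9 in T138 and at 685, 893 and 561 in WT, and every T143 ratio was below every other.

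The proximal promoters of Itgb8 and Tgfbr2, called in opposite directions in T143 against WT, are shown as members of ligand release and ligand binding with opposed changes. Each runs from 250 bases before to 50 bases after the start of the gene, read 5′ to 3′ on the gene's strand from RefSeq on GRCm38.p6, with Itgb8 at chr12:119238227-119238526 (minus strand) and Tgfbr2 at chr9:116175314-116175613 (minus strand). Capitals mark the letters CAGAC on either strand, the core of the box that SMAD proteins are known to bind.
Itgb8: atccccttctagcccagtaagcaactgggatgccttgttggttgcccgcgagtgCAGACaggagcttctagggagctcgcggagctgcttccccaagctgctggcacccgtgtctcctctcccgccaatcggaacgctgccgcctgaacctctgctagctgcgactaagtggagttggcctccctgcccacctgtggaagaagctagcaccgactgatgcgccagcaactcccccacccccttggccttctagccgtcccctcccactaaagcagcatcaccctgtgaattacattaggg
Tgfbr2: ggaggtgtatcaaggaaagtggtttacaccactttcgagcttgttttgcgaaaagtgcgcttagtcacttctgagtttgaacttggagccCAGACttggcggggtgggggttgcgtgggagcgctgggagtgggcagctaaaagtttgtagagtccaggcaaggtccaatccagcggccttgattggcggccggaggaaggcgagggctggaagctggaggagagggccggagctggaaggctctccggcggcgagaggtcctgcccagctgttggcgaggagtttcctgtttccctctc
Both windows hold 1 CAGAC match, and 49.6% of the 32851 promoters of the same length hold at least 1, so a match is common. GC content is 60.7% for Itgb8 and 59.0% for Tgfbr2. A forkhead core (GTAAACA, in 3.6% of promoters, either strand) and a RUNX core (TGTGGT, in 16.8%) are in neither of the 2 windows. Promoters were read for 7 of the 10 members, and the 8 windows include 2 for Tgfbr1. No window was read for Lrrc32, Smad2 or Smad7, so nothing is said of their promoters.

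The receptor-regulated SMADs were called in no comparison. Smad2 (chromosome 18) was at 1614, 1485 and 1233 in T143, at 1196 and 1264 in T138 and at 972, 1295 and 1084 in WT, and the groups overlapped. Its change was 0.37 ± 0.16 in T143 against WT (adjusted p = 0.12), 0.22 ± 0.18 in T143 against T138 (adjusted p = 0.403) and 0.15 ± 0.18 in T138 against WT (adjusted p = 0.668). Smad3 (chromosome 9) was at 1988, 1864 and 2003 in T143, at 2828 and 2465 in T138 and at 1944, 2259 and 2310.4 in WT. Both T138 libraries lay above all others, and T143 and WT overlapped. The change was -0.44 ± 0.14 in T143 against T138 with an adjusted p of 0.0536, close to the threshold, and passed it without WT replicate 2 (0.0485) or with DESeq2 (0.0301). It was 0.29 ± 0.14 in T138 against WT (adjusted p = 0.256) and -0.15 ± 0.13 in T143 against WT (adjusted p = 0.438).

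Of the 2 inhibitors, Ski was called once. Ski (chromosome 4, 155154075 to 155222535), which holds SMAD complexes in a repressed state, was at 4141, 4576 and 3460.5 in T143, at 5267 and 4482 in T138 and at 5772, 6209 and 6363 in WT. WT lay above both lines, which overlapped. Ski fell by 0.60 ± 0.14 in T143 against WT (1.51-fold lower, adjusted p = 0.0112, and 0.0562 without trend and robust fitting). Its change was -0.33 ± 0.16 in T138 against WT (adjusted p = 0.225) and -0.27 ± 0.16 in T143 against T138 (adjusted p = 0.245). Smad7 (chromosome 18), the inhibitory SMAD that the pathway itself induces, was at 2486, 2048 and 1204 in T143, at 1922 and 1731 in T138 and at 1747, 1674 and 1875 in WT. T143 held both the highest and the lowest library of the 8, so its range covered the other groups. The 3 changes lay between 0.00 and 0.05, with intervals of -0.56 to 0.57 for T143 against T138, -0.51 to 0.61 for T138 against WT and -0.45 to 0.56 for T143 against WT, each wider than the matching Tgfb1 interval.

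**Figure D4:**
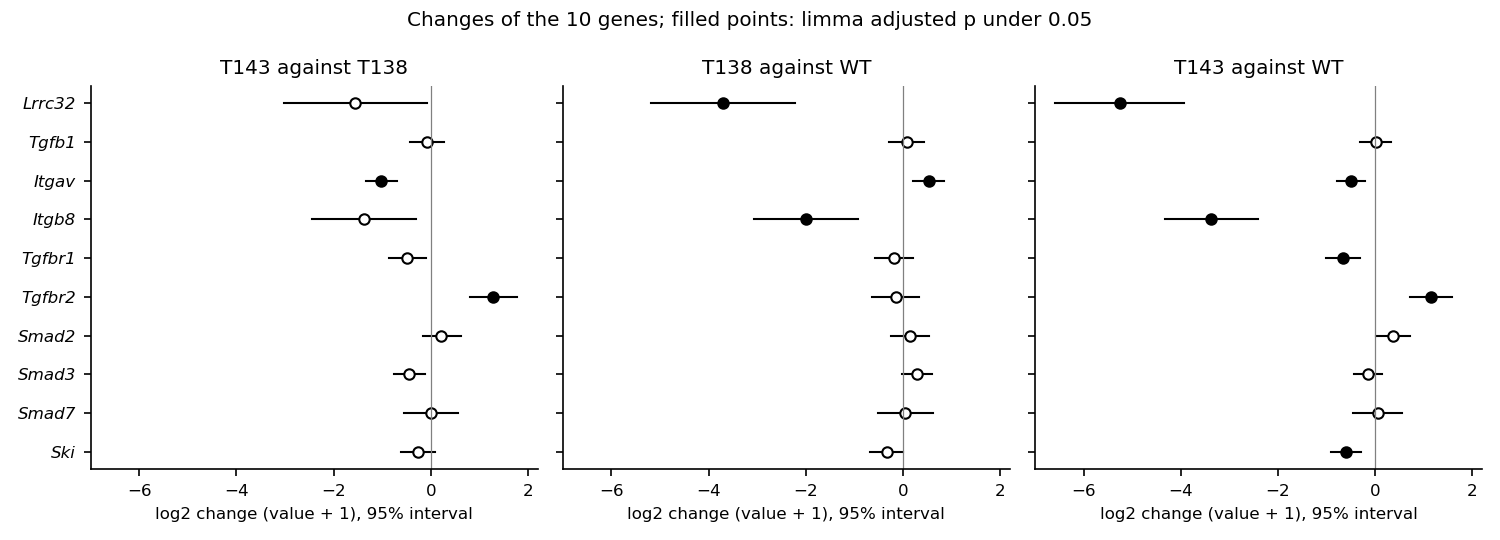
Difference of log2(value + 1) for each member (rows) in the 3 comparisons, with 95% intervals from the limma fit, and filled points where the adjusted p is under 0.05. The Lrrc32 and Itgb8 intervals against WT lie wholly below 0, that of Tgfbr2 in T143 lies above 0 against both other groups, and the Tgfb1 and Smad7 intervals span 0.

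Levels per kilobase of transcript put the members in order within a group. In T143 the mean levels ran from Tgfb1 (1294 per kb) through Tgfbr2 (1077), Ski (735), Smad7 (447), Smad3 (383), Tgfbr1 (294), Smad2 (179) and Itgav (154) to Lrrc32 (32.6) and Itgb8 (4.3). In T138 they ran from Tgfb1 (1357) through Ski (883), Smad3 (519.9), Tgfbr2 (430.4), Smad7 (427), Tgfbr1 (410.1), Itgav (309.9) and Smad2 (152) to Lrrc32 (66.1) and Itgb8 (10.4). In WT they ran from Tgfb1 (1301) through Ski (1107), Lrrc32 (871), Tgfbr2 (474), Tgfbr1 (473), Smad3 (427), Smad7 (413), Itgav (216) and Smad2 (138.1) to Itgb8 (41.9). Lrrc32 thus held rank 3 of the 10 in WT and rank 9 in both lines, and Tgfb1 was first in each group. Neighbours whose ranges over libraries overlapped were not told apart: in T143 Tgfb1 with Tgfbr2, Tgfbr2 with Ski, Smad7 with Smad3 and Smad2 with Itgav; in T138 Tgfbr2 with Smad7 and Smad7 with Tgfbr1; and in WT Tgfb1 with Ski, Tgfbr2 with Tgfbr1, Tgfbr1 with Smad3 and Smad3 with Smad7.

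The other genes of the pathway were read from companion lists of latency, receptor, SMAD regulator and TGF-beta-responsive genes, which hold 52 genes that are not members, 51 of them tested. In T143 against T138, 9 were higher and 9 lower (7 higher and 11 lower after median centring), with a median change of 0.24. In T138 against WT, 10 were higher and 4 lower (median 0.24), and in T143 against WT, 10 were higher and 6 lower (median 0.37). The medians over all tested genes were 0.15, -0.06 and 0.05 in the same 3 comparisons. Of all tested genes, 10.8% were called higher and 10.2% lower in T143 than in T138. The shares were 5.74% higher and 5.30% lower in T138 against WT, and 11.7% higher and 12.1% lower in T143 against WT. The counts of the single lists below are to be read beside the same shares.

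Of 14 latency and activation genes, 1 was higher and 3 were lower in T143 than in T138, 3 were higher and none lower in T138 than in WT, and 4 were higher and 1 lower in T143 than in WT. Nrros encodes LRRC33, a relative of GARP that docks latent TGF-beta on myeloid cells. It was at 2458, 2815 and 2979 in T143, at 3816 and 3557 in T138 and at 2021.5, 1709 and 2132 in WT, so that WT was lowest, the reverse of Lrrc32. Nrros was 0.49 ± 0.14 higher in T143 than in WT (adjusted p = 0.0242) and 0.92 ± 0.15 higher in T138 than in WT (adjusted p = 0.00392). The monocyte and macrophage list was also higher in both lines than in WT. It took 0.0705 to 0.293% of the signal in T143 and 0.0344 and 0.0221% in T138, while Nrros was highest in T138. The part of these cells in the Nrros level was not tested. Thbs1, whose product thrombospondin 1 can activate latent TGF-beta, was at 27.9, 62.4 and 131 in T143, against 0 and 0.85 in T138 and 0.69, 0 and 0 in WT. It was called higher in T143 against T138 (adjusted p = 0.00329) and against WT (adjusted p = 0.00134), with no fold given because the other groups hold at most 1 read a library. Over the T143 libraries, the order of Thbs1 was that of the neutrophil, the monocyte and macrophage, and the platelet lists. The part of these cells in the Thbs1 level was not tested. Mmp14, a membrane protease, fell by 2.23 ± 0.63 in T143 against T138 (adjusted p = 0.0295), and Ltbp2 was near its floor outside T138, at 23.6 and 16.9 there.

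Of 10 further receptor genes, 3 were higher and 1 lower in T143 than in T138, 2 were higher and 1 lower in T138 than in WT, and 4 were higher and none lower in T143 than in WT. Tgfbr3, the co-receptor betaglycan that presents ligand to Tgfbr2, was at 1964, 1760.0 and 849 in T143, at 129 and 143.1 in T138 and at 552, 738 and 589.8 in WT. The groups did not overlap, with T143 highest and T138 lowest. Tgfbr3 was 3.39 ± 0.32 higher in T143 than in T138 (11.2-fold, adjusted p = 0.000206) and 1.20 ± 0.29 higher in T143 than in WT (adjusted p = 0.0133), and it fell by 2.19 ± 0.32 in T138 against WT (adjusted p = 0.00221). Acvrl1, a type I receptor known from endothelium as ALK1, was at 1321, 1176 and 1233 in T143, at 247 and 65.2 in T138 and at 110.2, 89.5 and 105 in WT. It was 3.28 ± 0.45 higher in T143 than in T138 (adjusted p = 0.00107) and 3.61 ± 0.40 higher in T143 than in WT (adjusted p = 0.000287). The 4 endothelial marker genes summed to 18.6 to 42.0 in T143, to 71.85 and 0 in T138 and to 6.21, 12.78 and 0 in WT. The part of endothelial cells in the Acvrl1 level was not tested. The activin type I receptor Acvr1b was 1.25 ± 0.18 higher in T143 than in T138 (adjusted p = 0.00138). T138 differed from both other groups in Bmpr1a, a type I receptor for bone morphogenetic proteins, which was at 107, 139.99 and 233 in T143, at 529.5 and 527 in T138 and at 117, 141 and 112 in WT. Bmpr1a fell by 1.79 ± 0.36 in T143 against T138 (adjusted p = 0.00686) and was 2.10 ± 0.36 higher in T138 than in WT (adjusted p = 0.00474). Bambi, a decoy receptor without a kinase, was 3.49 ± 0.72 higher in T138 than in WT (10.8-fold, adjusted p = 0.0118), and the co-receptor Eng was 2.94 ± 0.79 higher in T143 than in WT (adjusted p = 0.0221).

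Of 18 tested SMADs and SMAD regulators, 3 were higher and 3 lower in T143 than in T138, 1 was higher and 3 were lower in T138 than in WT, and none was higher and 4 were lower in T143 than in WT. Skil, the partner of Ski in repression and itself a target of the pathway, was at 1317, 1508 and 1564 in T143, at 1759.8 and 2183 in T138 and at 3948, 4789 and 3282 in WT. Both lines lay below WT, and Skil fell by 1.44 ± 0.16 in T143 against WT (adjusted p = 0.000326) and by 1.01 ± 0.18 in T138 against WT (adjusted p = 0.00621). Smurf1, a ubiquitin ligase that works with Smad7 on the receptor, fell by 0.51 ± 0.16 in T143 against WT (adjusted p = 0.0417) and by 0.69 ± 0.18 in T138 against WT (adjusted p = 0.0335). Pmepa1, which holds SMADs away from the receptor, fell by 0.95 ± 0.25 in T143 against T138 (adjusted p = 0.0233) and by 1.48 ± 0.22 in T143 against WT (adjusted p = 0.00139). Tgif1, a corepressor of SMADs, was at 418, 300.3 and 231 in T143, at 869 and 925 in T138 and at 1005, 766 and 1014 in WT, and T143 lay below the rest. It fell by 1.54 ± 0.25 in T143 against T138 (adjusted p = 0.00253) and by 1.58 ± 0.23 in T143 against WT (adjusted p = 0.00106). The ubiquitin ligase gene Rnf111, whose product degrades Ski and Smad7, was 0.74 ± 0.16 higher in T138 than in WT (adjusted p = 0.0171) and fell by 1.09 ± 0.16 in T143 against T138 (adjusted p = 0.00166). Nedd4l, another ubiquitin ligase, was 1.66 ± 0.39 higher in T143 than in T138 (adjusted p = 0.0142) and fell by 1.61 ± 0.39 in T138 against WT (adjusted p = 0.0256).

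Of 12 genes known to respond to TGF-beta, 2 were higher and 4 lower in T143 than in T138, 4 were higher and 1 lower in T138 than in WT, and 2 were higher and 4 lower in T143 than in WT. Skil, Pmepa1 and Tgif1 are among these 12 as well. Itgae, the CD103 chain that TGF-beta induces in T cells, was at 434, 335 and 848 in T143, at 3463 and 2430.0 in T138 and at 1451, 1314 and 2009 in WT. The groups did not overlap, with T143 lowest and T138 highest. Itgae fell by 2.54 ± 0.35 in T143 against T138 (5.47-fold lower, adjusted p = 0.0011) and by 1.65 ± 0.31 in T143 against WT (adjusted p = 0.00409), and the change in T138 against WT was 0.89 ± 0.35 (adjusted p = 0.142). Id2, an inhibitor of basic helix-loop-helix factors, was at 3455, 2910.5 and 3129 in T143, at 1198 and 946 in T138 and at 597, 552 and 604 in WT. The order was T143, T138, WT from high to low without overlap, and Id2 was called in all 3 comparisons, 1.57 ± 0.16 higher in T143 than in T138 (adjusted p = 0.000247), 0.87 ± 0.16 higher in T138 than in WT (adjusted p = 0.00719) and 2.43 ± 0.14 higher in T143 than in WT (adjusted p = 7.14e-06). The matrix gene Tgfbi was at 444, 1701 and 6125 in T143, at 1297 and 625 in T138 and at 19.3, 63.9 and 15.2 in WT, with adjusted p of 0.00161 for T143 and 0.011 for T138 against WT. Its order over the 3 T143 libraries, and over the 2 of T138, was that of the neutrophil list and of the monocyte and macrophage list. Across the lines the orders differed, since T138 replicate 1 was above T143 replicate 1 in Tgfbi and below it in both lists. The part of these cells in the Tgfbi level was not tested. The cell cycle inhibitor Cdkn1a was 3.21 ± 0.59 higher in T138 than in WT (adjusted p = 0.00701).

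**Figure D5:**
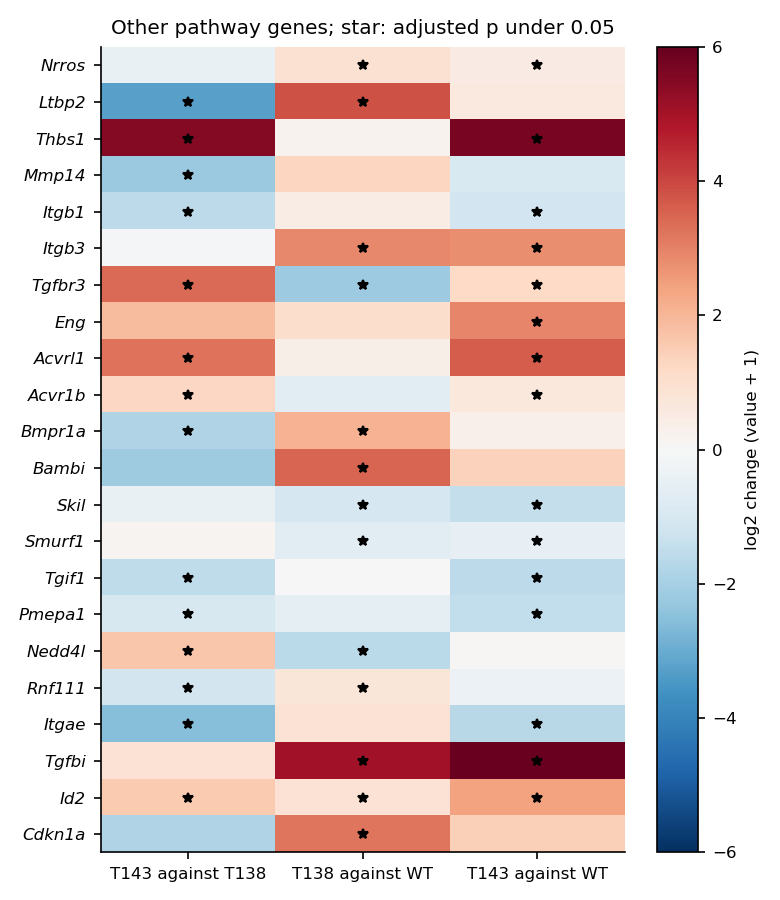
Difference of log2(value + 1) for the 22 other pathway genes named here (rows) in T143 against T138, T138 against WT and T143 against WT (columns), red for higher and blue for lower in the first group of the pair, with a star where the adjusted p is under 0.05. Rows such as Tgfbr3 and Nedd4l change colour between the first and second columns, and Id2 is starred in all 3.

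With the mean level of the neutrophil list added to the fit, 3 members were called in T143 against T138 and none in T138 against WT or T143 against WT (limma, with 1 and 3 members at an unadjusted p under 0.05 in these 2). With the dendritic cell and MHC class II list, none was called in any of the 3 comparisons (2, 1 and 2 at an unadjusted p under 0.05). These marker levels were higher in every T143 and T138 library than in every WT library, so a marker level and the group cannot be told apart in the comparisons with WT. The lines did not overlap in them either. On the log2 scale the neutrophil level was 11.31, 12.19 and 13.87 in T143, against 9.38 and 7.58 in T138. The dendritic level was 7.59, 9.46 and 9.0 in T143, against 10.74 and 10.63 in T138. Marker level and line are therefore not cleanly told apart in T143 against T138. With the neutrophil term the Lrrc32 change grew to -7.41 in T138 against WT (adjusted p = 0.148) and to -11.2 in T143 against WT (adjusted p = 0.113), and the Itgb8 change shrank to -0.24 in T138 against WT (adjusted p = 0.958) and to -0.55 in T143 against WT (adjusted p = 0.927). With the dendritic term the Lrrc32 change was -7.11 in T138 against WT (adjusted p = 0.864) and -7.5 in T143 against WT (adjusted p = 0.222), and the Itgb8 change -0.59 (adjusted p = 0.988) and -2.44 (adjusted p = 0.671). Itgav in T138 against WT was at 0.01 with the neutrophil and 0.05 with the dendritic term, and in T143 against WT at -1.31 and -0.80. In T143 against WT, Tgfbr1 was at -1.71 with the neutrophil and -0.90 with the dendritic term, Tgfbr2 at 2.25 and 1.93, and Ski at -0.47 and -0.77. Between the lines, with the neutrophil term, Lrrc32 was called at -3.79 (adjusted p = 0.0326), Itgav at -1.33 (adjusted p = 0.0184) and Tgfbr2 at 1.71 (adjusted p = 0.0293). With the dendritic term Itgav was at -0.85 (adjusted p = 0.14) and Tgfbr2 at 0.89 (adjusted p = 0.254).

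Genes whose level followed that of a member most closely were ranked by Pearson's r of log2(value + 1) over the 8 libraries, as a description in which group differences and shared libraries enter every r. Among 7542 genes above the median level, Gpr155 (r = 0.99), Tiam1 (0.988), Baiap3 (0.981), P2rx7 (0.973) and Cd83 (0.967) came nearest to Lrrc32. Among 7543 such genes, Slc7a6 (0.991), Hdac7 (0.987), Rasal3 (0.987), Arhgef1 (0.981) and Krba1 (0.98) came nearest to Itgb8. Cd83 was at 153, 261 and 278 in T143, at 456 and 389 in T138 and at 2313, 1848 and 2706 in WT, and Hdac7 at 2701, 3371 and 2178 in T143, at 4387 and 4638 in T138 and at 7871, 9126 and 9212 in WT. For Tgfb1, the nearest included Fem1a (0.938), Rin3 (0.902), Spag7 (0.888) and Faap100 (0.864), whose levels, like that of Tgfb1, were highest in WT replicate 3.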

How the data were processed

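The authors deposited a signal per gene and library, which by its values is a read count scaled so that each library sums to 15.59 M. Tools named without a role in the submitters' processing notes are STAR 2.5.2b, HOMER 4.8, CASAVA 1.8.2 and edgeR, with the build mm10. Libraries were stranded and poly(A)-selected, per the labels' protocols, and whether counting used strand is not stated there. Dividing by the step of each library gave reads that were whole (within 0.01 deposited units) for 100% of values, and a floor of 3 reads equals a value of 2.07 to 5.97, which covers counting error only. No molecular identifiers are named, so reads are not independent molecules.

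Limma 3.58.1 (R 4.3.3) was fitted to log2(value + 1) of all 8 libraries by group, with trend and robust moderation, since T138 has only 2 libraries. Genes reaching 1 in 2 or more libraries entered, and calls are two-sided at a Benjamini-Hochberg adjusted p under 0.05 over all 15547 genes. The added 1 shrinks the changes of low genes, but not every low gene changed less here than in fits to recovered reads. Lrrc32 in T143 against WT was at -5.26 here, at -4.635 with edgeR and at -4.665 with DESeq2. The procedure was also run on simulated counts, but the outcome is not given here, so nothing is drawn from it. On the recovered reads, edgeR 4.0.16 called 2786 genes in T143 against T138, 1344 in T138 against WT and 3277 in T143 against WT; DESeq2 1.42.0 was another alternative, with other pseudocounts, filters and scalings, each library left out, and marker levels as covariates.

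The members, lists and tests were chosen with earlier results of these data known. Beside the members, up to 4 called genes of each companion list and comparison with the smallest p are named, with Foxp3 and Cd4 as sort markers, the 5 genes most like Lrrc32, Itgb8 and Tgfb1, and marker lists as values. A gene that met this rule is not reported here. Itgb5, Itgb6 and the change of Itgae in T143 against WT were added after their values were seen. Of the other marker lists, the erythroid one took 0.0131, 0.0767 and 0.039% of the signal in T143. It took 0.00541 and 0.0114% in T138 and 0.00106 to 0.0028% in WT. The lists of B, NK, CD8 T and stromal cells took at most 0.00755% of the signal of any library. Positions came from RefSeq (GRCm38.p6) and transcript lengths from GENCODE.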

Additional observations from a re-analysis of the deposited data

How the results depend on the processing

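T143 held 7.83 to 12.6 M reads, so low members such as Itgb8 rest on few reads there, and T138 has 2 libraries. Directions of called members held under all 25 alternatives. Leaving out 1 library, the genes called ranged from 1347 to 3668 in T143 against T138, from 757 to 1779 in T138 against WT and from 2426 to 3558 in T143 against WT. Members called ranged from 2 to 4 and from 1 to 3 in the first 2 of these, and other pathway genes from 9 to 22 and from 8 to 16. The lowest counts of the first 2 comparisons came without T138 replicate 2, and the count of T143 against T138 was also 2004 without T143 replicate 2 and 2046 without T138 replicate 1. Without trend and robust fitting, 2158 genes were called in T143 against T138, 977 in T138 against WT, and 3 members in T143 against WT. DESeq2 called 4 members in T143 against T138. Without both libraries whose source names give another mouse, 1 member was called in T138 against WT, and 4 (1 higher and 3 lower) in T143 against WT, where Itgav (adjusted p = 0.0689) and Tgfbr1 (0.0718) were no longer called. With the neutrophil covariate the genes called in limma were 1006, 0 and 0 (3598, 2057 and 2067 at an unadjusted p under 0.05), in the order T143 against T138, T138 against WT and T143 against WT, and other pathway genes 9, 0 and 0 (22, 7 and 11), with 0 members in the last 2. With the dendritic covariate they were 144, 0 and 15 genes (2817, 893 and 1498), 1, 0 and 0 other pathway genes (16, 5 and 7) and 0 members in each. Removing together the library of each line with the most neutrophil signal, T143 replicate 3 and T138 replicate 1 (chosen after seeing the data), left 1676 genes called in T143 against T138, 936 in T138 against WT (383 higher and 553 lower), and 8 other pathway genes in T138 against WT. The cause of these shifts was not tested.

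Signs turned only for members not called in the comparison concerned. Their changes in the main fit ran from -0.148 (Tgfbr2) to 0.286 (Smad3), both in T138 against WT. Smad7 in T143 against T138 was -0.006 under quantile normalization, -0.085 under median centring, -0.008 with voom, -0.216 without the source-name libraries and -0.483 with the dendritic term, and ranged from -0.216 to 0.306 over left-out libraries. In T143 against WT it was -0.077 under median centring and -0.174 without the source-name libraries (range -0.167 to 0.355), and in T138 against WT -0.026 without the neutrophil-rich pair (range -0.026 to 0.124). Tgfb1 in T143 against WT was -0.125 under median centring, -0.04 without the source-name libraries and -0.282 with the dendritic term (range -0.078 to 0.146). It was 0.023 and 0.079 in T143 against T138 with the neutrophil and the dendritic term, and -0.361 in T138 against WT with the dendritic term (range -0.008 to 0.216). Tgfbr2 in T138 against WT was 0.541 and 1.04 with the 2 terms (range -0.321 to 0.025), and Smad3 -0.102 with the neutrophil term. Quantile normalization moved the median change of all genes in T143 against T138 to 0.014, against 0.152, and in T143 against WT to -0.078, against 0.053.

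Same-numbered libraries of different groups deviated from their group means with correlations of -0.06 to 0.05. Such deviations sum to 0 within groups of 2 or 3 libraries, so these values cannot tell whether the numbers pair samples. With a replicate block, 3109, 1804 and 3940 genes and 3, 2 and 6 members were called, Lrrc32 in T143 against T138 was -2.01 (adjusted p = 0.0205), Itgav in T138 against WT 0.54 (0.0602), and Smad7 in T138 against WT -0.08.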
